A study of Mus musculus with 30 samples.

Results

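Irf4 knockout (KO) dendritic cells that had been in lipopolysaccharide (LPS) for 24 h were set against KO cells 6 h into the same stimulation. The comparison rests on 10 of the 30 arrays of the series, the 5 titled as LPS 24 hrs and the 5 titled as LPS 6 hrs from CD11c-Cre IRF4flox mice, and was described across all genes measured. The cells were bone marrow-derived dendritic cells (BMDCs), a cultured form of the cells that take up antigen and show it to T cells, selected with CD11c beads before RNA was taken. KO donors were C57BL/6 mice with the CD11c-Cre transgene and loxP-flanked IRF-4 alleles on both chromosomes, and control donors carried the CD11c-Cre transgene alone. Both genotypes therefore express Cre from the CD11c promoter, and deletion is limited to cells in which that promoter has been active. The 6 groups of 5 biological replicates were KO cells at 24 h of LPS, at 6 h of LPS and unstimulated, and control cells at 24 h of LPS, at 6 h of LPS and unstimulated. Each array was hybridised with sample RNA in Cy5 and a universal mouse reference RNA in Cy3, and values are log2 ratios of sample over that reference, so that a difference of 1 is 2-fold.

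LPS is a bacterial cell wall component that is sensed by Toll-like receptor 4 and starts 2 signalling arms, one through the adaptor MyD88 to NF-kB and one through TRIF to interferon beta and the interferon-stimulated genes. In dendritic cells the first hours bring a burst of cytokine and chemokine transcripts, many of them unstable and held in check by inhibitors that the same signal induces, while surface maturation and metabolic change go on for longer. IRF4, one of the interferon regulatory factors that bind DNA, has known roles in the development of some dendritic cell subsets and in antigen presentation through MHC class II.

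The targeted gene was checked first. Irf4 had log2 ratios of -0.47, -0.056, -0.38, 0.62 and 0.14 at 24 h, against -0.31, -0.11, -0.20, 0.41 and -0.34 at 6 h in KO cells. The values of both times overlapped (mean -0.0303 ± 0.44 at 24 h and -0.11 ± 0.30 at 6 h, SD, n = 5 each; exact two-sided permutation p = 0.746). The gene was 4.50-fold lower in KO than in control cells at 24 h of LPS, 5.34-fold lower at 6 h and 7.48-fold lower unstimulated, with no overlap of arrays in any of these (exact permutation p = 0.00794, two-sided, the lowest value possible with 5 arrays a group). It was read by 1 probe here, and no source used here says whether that probe lies within the floxed exons. The dendritic cell markers Itgax, the gene of CD11c (log2 ratio 4.19 ± 0.10 at 24 h and 4.33 ± 0.21 at 6 h), and H2-Ab1, an MHC class II chain (3.77 ± 0.068 at 24 h and 3.78 ± 0.076 at 6 h), were well above background on all 10 arrays.

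A few features of the 10 arrays touch the values that follow. Replicates 1 to 3 and replicates 4 and 5 formed separate subsets at both times: array correlations across genes were 0.984 to 0.994 within a subset at 24 h and 0.975 to 0.993 at 6 h, against 0.863 to 0.899 across subsets at 24 h and 0.871 to 0.905 at 6 h. The subset means differed at least 2-fold for 1441 genes at 24 h and 1452 at 6 h, and no source used here says what a subset stands for. Array replicates with the same number deviated from their group means together (correlation 0.792 to 0.875), so a fit with the replicate number as a block is given beside the first. The 24 h arrays lay on slides 5 and 6 and the 6 h arrays on slides 3 and 4, and 0 slides held both times, so slide and time are separated only through arrays of other groups. Among the other arrays of the series, the control arrays LPS 6 h replicate 3 and LPS 24 h replicate 2 lay near unstimulated control arrays: Il6, for example, had -0.65 on the first and 7.19 to 7.88 on the other control arrays at 6 h. They enter no KO mean, but the pooled estimate of spread includes them, so results are also given without these 2 arrays. Probes well above background made up 50.1% to 53.2% of an array.

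Of 11260 genes tested, 872 (7.74%) differed between 24 and 6 h of LPS at an adjusted p under 0.05 (limma, one mean per group over all 30 arrays, Benjamini-Hochberg adjustment): 399 (3.54%) were higher at 24 h and 473 (4.2%) lower. A change of at least 2-fold was seen in 81 of the genes that rose and 141 of those that fell. All 5 same-numbered pairs of arrays moved in the called direction for 864 of the 872 genes; of all genes tested 25% moved higher and 25.8% lower in all 5 pairs. For 699 of the 872 the 5 arrays of one time lay wholly beyond the 5 of the other, as they did for 11.7% of all genes (5.59% higher and 6.11% lower). A replicate block raised the count to 2102 genes (18.7%), 1032 higher (9.17%) and 1070 lower (9.5%), and all 872 were among them. Counts were lower without 6 h replicate 3 (491 genes) or 6 h replicate 2 (563), and higher without the 2 outlying control arrays, at 1486 (13.2%, 6.16% or 694 higher and 7.03% or 792 lower). With the slide as a random block 475 genes were called, all of them among the 872. Of 60 genes that are named and called here, 24 were not called in that fit, all in the same direction as before (adjusted p = 0.0523 to 0.122): Adm, Cd69, Cxcl10, Cxcr4, Dcn, Ddit3, Dusp6, Fabp5, Gbp5, Gclm, Icam1, Il15ra, Mafk, Mdh1, Mertk, Oas1g, Pf4, Pmvk, Sdhb, Smurf2, Tcf4, Tlr3, Tnip3 and Zbtb46. A fixed slide block, which can compare the times only through arrays of other groups, called 5841 genes, and 693 of the 872 kept their direction in it; with the replicate block added it called 276, and 732 of the 872 kept their direction. Fewer cells of a type and less RNA per cell cannot be told apart in such bulk samples.

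Most of the genes that fell most had been induced by LPS at 6 h and were on the way back at 24 h. Of the 12 largest falls Mrc1 alone had a higher mean in unstimulated cells than at 6 h. The largest falls and rises were taken among called genes whose times did not overlap. Lack of overlap in these genes was thus set by the choice. The chemokine Cxcl10, which attracts T cells through CXCR3, had log2 ratios of 4.82, 5.08, 5.88, 2.87 and 2.73 at 24 h, against 8.46, 8.72, 9.28, 7.79 and 7.32 at 6 h. All 24 h arrays lay below all 6 h arrays, and replicates 4 and 5 were the lowest at both times. The fall of this gene was 16.4-fold (log2 difference -4.04, SE 1.21, adjusted p = 0.038). The mean in unstimulated KO cells was -2.17, so that Cxcl10 was still far above it at 24 h. Fbp1, the gluconeogenic enzyme fructose bisphosphatase, had 1.45, 1.63, 1.13, 3.97 and 3.69 at 24 h, against 5.91, 5.99, 5.85, 6.97 and 6.83 at 6 h. Replicates 4 and 5 were the highest here at both times, and the fall was 15.3-fold (log2 difference -3.94, SE 0.68, adjusted p = 0.000602), to below the unstimulated mean of 4.87. The vasoconstrictor peptide gene Edn1 had 0.10, 0.17, 0.61, 1.18 and 1.24 at 24 h, against 3.73, 3.93, 4.32, 4.15 and 3.70 at 6 h. Edn1 fell 9.89-fold (log2 difference -3.31, SE 0.59, adjusted p = 0.000926) and stayed above its unstimulated mean of -0.98.

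Cd69, a lectin of early lymphocyte and myeloid activation, had 2.98, 3.34, 3.43, 4.76 and 4.42 at 24 h, against 5.82, 6.13, 6.35, 6.71 and 6.35 at 6 h. The fall of Cd69 was 5.60-fold (log2 difference -2.49, SE 0.67, adjusted p = 0.0204). Tnfsf8, the ligand of CD30, had 0.63, 0.71, 0.69, 1.34 and 1.38 at 24 h, against 2.57, 2.88, 2.95, 4.40 and 3.34 at 6 h. Tnfsf8 fell 4.86-fold (log2 difference -2.28, SE 0.49, adjusted p = 0.00424). In both genes all 24 h arrays lay below all 6 h arrays, as the choice of the largest falls required. Plet1, a surface protein anchored by a lipid, had 2.77, 2.69, 2.73, 4.83 and 4.39 at 24 h, against 6.03, 6.05, 6.22, 6.04 and 6.07 at 6 h. Its 6 h values were nearly alike, while the 24 h values of replicates 1 to 3 lay well below those of replicates 4 and 5. The fall of this gene was 6.07-fold (log2 difference -2.60, SE 0.58, adjusted p = 0.00523).

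Falls that were even across replicates were those of the splicing factor Tra2a and of Tsc22d1, a leucine zipper protein of the TSC22 family. Tra2a had -1.69, -1.84, -1.78, -1.55 and -1.39 at 24 h, against 0.31, 0.62, 0.82, 0.76 and 0.41 at 6 h. Tra2a was 4.71-fold lower (log2 difference -2.24, SE 0.22, adjusted p = 5.84e-07, the smallest adjusted p of the named genes). Tsc22d1 had -2.91, -2.92, -3.04, -3.25 and -3.01 at 24 h, against -0.96, -0.59, -0.62, -0.56 and -1.14 at 6 h. Tsc22d1 fell 4.77-fold (log2 difference -2.25, SE 0.26, adjusted p = 8.58e-06). The 5 arrays of each time were close together in both genes, and at 24 h the means were below the unstimulated ones of -1.08 for Tra2a and -2.79 for Tsc22d1. The ion channel family member Calhm6 (log2 difference -2.79 ± 0.62, ± SE), the homeodomain factor Lhx2 (-2.67 ± 0.60) and the mannose receptor Mrc1 (-2.63 ± 0.71) fell as well. The call of Cxcl10 ended without 24 h replicate 1, 2, 4 or 5 or 6 h replicate 1, 2 or 3 (adjusted p = 0.0553 to 0.101, log2 difference -3.65 to -4.24). Mrc1 lost its call without 24 h replicate 4 or 6 h replicate 1, 2 or 3 (adjusted p = 0.0518 to 0.072, log2 difference -2.14 to -2.56), and Cd69 without 24 h replicate 1 or 2 (adjusted p = 0.0503 to 0.0572, log2 difference -2.28 to -2.37).

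**Figure D1:**
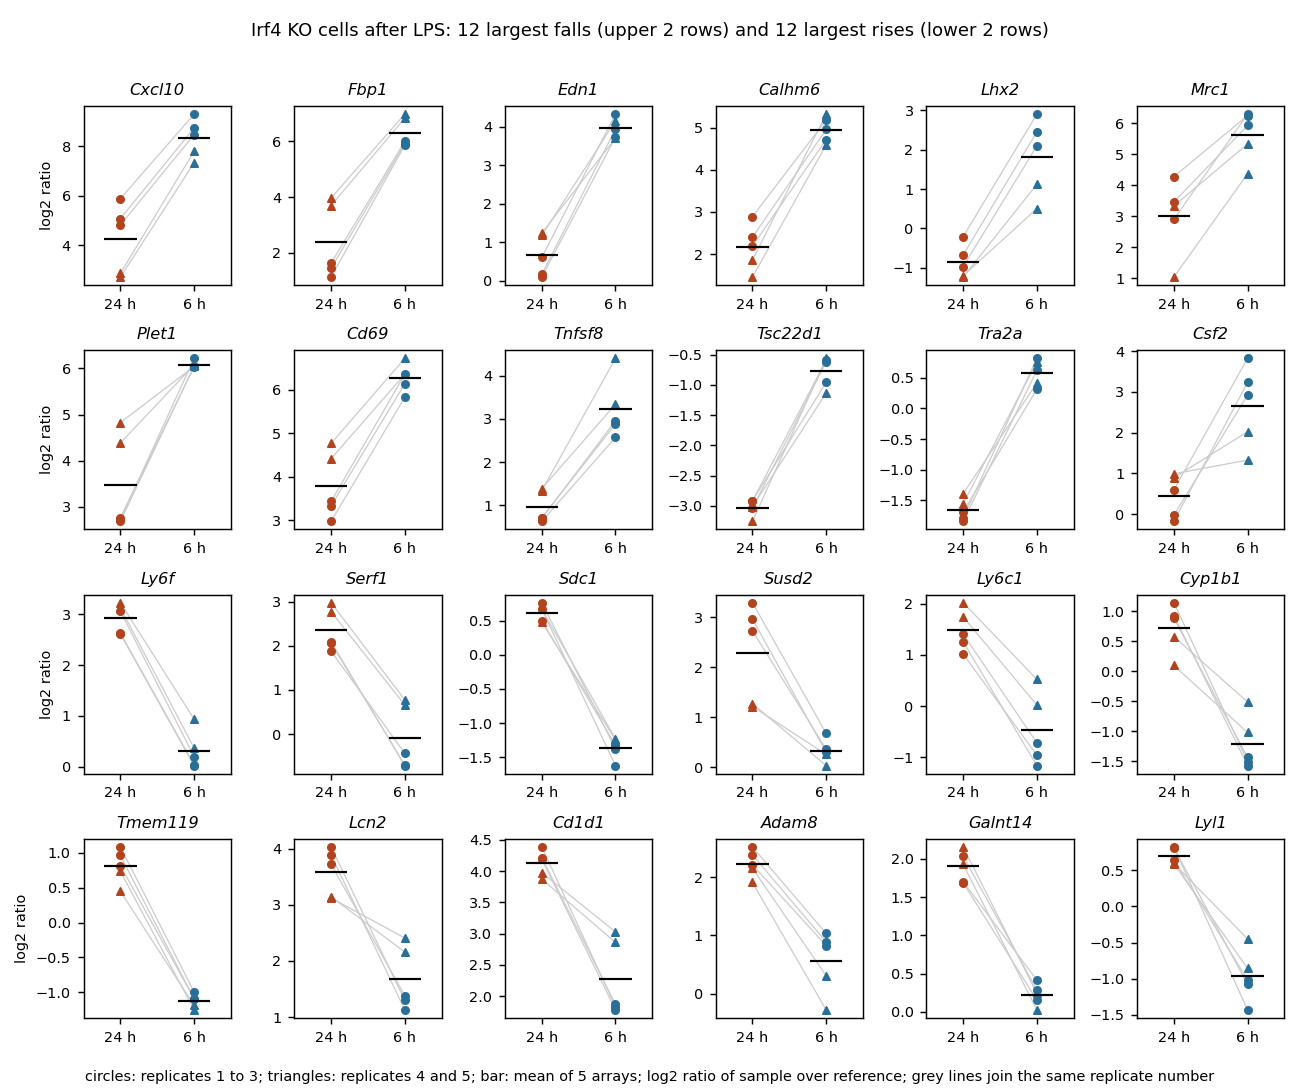
Log2 ratios of sample over reference on every array for the 12 largest falls (upper rows) and the 12 largest rises (lower rows) among called genes, LPS 24 h left of LPS 6 h in KO cells, with grey lines joining arrays of the same replicate number and bars at the means of 5 arrays. Triangles (replicates 4 and 5) stand apart from circles (replicates 1 to 3) at both times in Fbp1 and Lcn2, and at 24 h in Plet1 and Susd2. The arrays of both times do not overlap in any panel, which the choice of these genes required.

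The list of proinflammatory cytokines fell as a group in counts. Of 21 measured members 8 fell and 0 rose, against 4.2% of all genes lower and 3.54% higher. Counts were 9 and 0 with the replicate block and 12 and 0 without the 2 outlying control arrays. Of all genes 9.5% were lower with the block and 7.03% without those arrays. Their median log2 difference was -0.80, against -0.0051 for all genes tested. One of the 8, with the lowest log2 difference of the list, is Edn1, a vasoconstrictor peptide described above that is not itself a cytokine. Csf2 encodes GM-CSF, a growth factor of myeloid cells, and had -0.023, -0.18, 0.60, 0.89 and 0.99 at 24 h, against 2.92, 3.23, 3.82, 2.03 and 1.33 at 6 h. All 24 h arrays lay below all 6 h arrays, as the choice of the largest falls required. The 6 h values of replicates 1 to 3 were the highest. The fall was 4.63-fold (log2 difference -2.21, SE 0.30, adjusted p = 4.32e-05), and the probe was well above background on 3 of the 5 arrays at 24 h. The difference between times was larger in replicates 1 to 3 (-3.19) than in replicates 4 and 5 (-0.74).

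Il19, of the interleukin 10 family, had -0.046, -0.12, -0.34, 0.085 and 0.095 at 24 h, against 1.82, 1.80, 2.78, 2.23 and 1.76 at 6 h. It was not well above background on any 24 h array, so that it was at least 3.94-fold lower there (adjusted p = 0.00037). Il27 encodes a subunit of interleukin 27, which acts on T cells, and had 0.68, 0.67, 0.75, 0.83 and 0.76 at 24 h, against 1.46, 1.45, 1.96, 1.54 and 1.26 at 6 h, a small and even fall (log2 difference -0.80, SE 0.13, adjusted p = 0.00037). Neither gene had any overlap between the times. The other called members, named here after their values were seen, were Il18 (-2.09 ± 0.42), Tnfsf15 (-1.81 ± 0.44), the T and NK cell growth factor Il15 (-1.74 ± 0.50) and Il23a, a subunit of interleukin 23 (-0.96 ± 0.19).

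The classical cytokines Il6, Tnf and Il1b had 24 h means above their unstimulated ones, and the calls of Il6 and Tnf turned on the control arrays. Il6 had 6.33, 6.60, 6.80, 7.19 and 7.02 at 24 h, against 8.02, 8.38, 8.71, 9.01 and 8.54 at 6 h. All 24 h arrays lay below all 6 h arrays. The difference was not called (log2 difference -1.74, SE 1.04, adjusted p = 0.357) but was without the 2 outlying control arrays, where the SE was 0.34 (adjusted p = 0.000896). Tnf had 3.59, 3.80, 3.96, 2.84 and 3.01 at 24 h, against 4.40, 4.37, 4.49, 4.39 and 4.23 at 6 h. The times again did not overlap, and the same held for its call (log2 difference -0.94, SE 0.54, adjusted p = 0.331, 0.0248 without these arrays). Ptx3, a soluble pattern receptor (-1.99 ± 0.72, adjusted p = 0.0927), and the costimulatory ligand Tnfsf9 (-0.73 ± 0.24, adjusted p = 0.054) were called without them too, at adjusted p = 0.00772 and 0.00841. Il1b, whose product drives fever and inflammation, had 7.39, 7.55, 7.56, 7.37 and 7.24 at 24 h, against 7.65, 7.65, 7.84, 7.26 and 7.37 at 6 h, with overlapping groups and a difference smaller than its error (-0.13 ± 0.91, adjusted p = 0.96, 0.935 without the 2 arrays). The unstimulated means were 0.22 for Il6, 3.07 for Il1b and 0.34 for Tnf.

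Of 23 chemokine genes 1 fell and 1 rose, near the share of all genes (4.2% lower and 3.54% higher), with a median of -0.42. Counts were 3 and 2 with the replicate block and 3 and 2 without the 2 outlying control arrays. All genes had 9.5% lower and 9.17% higher with the block, and 7.03% and 6.16% without those arrays. Besides Cxcl10, the platelet chemokine Pf4 was called, higher at 24 h (log2 difference 0.96, SE 0.29, adjusted p = 0.0356). The T cell attractant Ccl5 (0.16 ± 0.80) and Ccl22 (-0.50 ± 0.37) were not called, nor was the neutrophil attractant Cxcl1 (-1.71 ± 0.88, adjusted p = 0.267), whose 24 h arrays all lay below its 6 h arrays. Without the 2 outlying control arrays Cxcl1 fell (adjusted p = 0.0157). With the replicate block Ccl4 (-2.38, adjusted p = 0.0228) and Ccl12 (-1.65, adjusted p = 0.0346) fell and Cxcl5 rose (1.46, adjusted p = 0.0471). Pf4 was not called without 24 h replicate 4 or 5 or 6 h replicate 1, 2 or 3 (adjusted p = 0.0894 to 0.111, log2 difference 0.78 to 0.92).

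**Figure D2:**
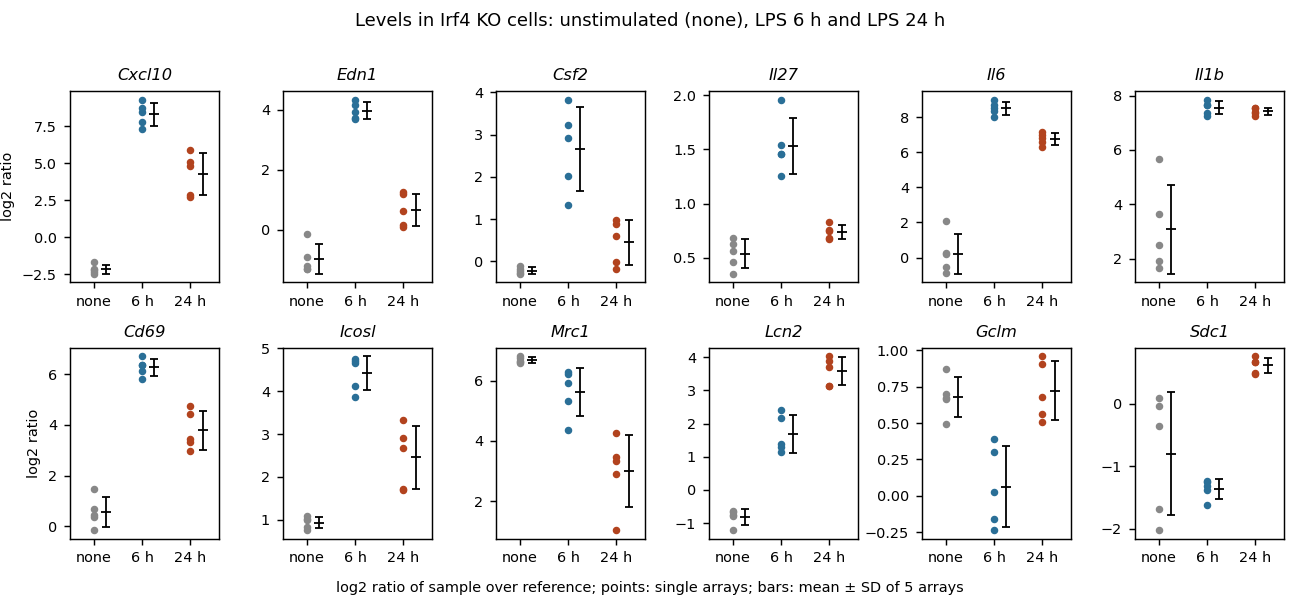
Log2 ratios of sample over reference in KO cells that were unstimulated (none), 6 h or 24 h in LPS, with single arrays as points and mean ± SD of 5 arrays as bars. Cxcl10, Edn1, Csf2, Il27, Cd69 and Icosl are highest at 6 h, Il1b has means of 7.42 at 24 h and 7.55 at 6 h, Lcn2 and Sdc1 are highest at 24 h, and Gclm is lowest at 6 h.

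Of 39 measured interferon-stimulated genes 2 fell and 0 rose, near the share of all genes (4.2% lower and 3.54% higher). Counts were 3 and 1 with the replicate block, 11 and 3 without the 2 outlying control arrays, against 9.5% lower and 9.17% higher of all genes with the block and 7.03% and 6.16% without those arrays. The median log2 difference was -0.70, with 8 members above 0. Eif2ak2, the double-stranded RNA sensor that halts translation, had 1.15, 1.33, 1.68, 0.88 and 0.55 at 24 h, against 2.54, 2.74, 2.92, 1.98 and 1.76 at 6 h. Eif2ak2 fell 2.41-fold with no overlap between the times (log2 difference -1.27, SE 0.35, adjusted p = 0.0237). Oas1g, of the oligoadenylate synthetases, a family of similar genes whose probes may share signal, fell less (log2 difference -0.72, SE 0.22, adjusted p = 0.038). The ubiquitin-like Isg15 (-0.50 ± 0.81), the antiviral Rsad2 (-1.25 ± 1.09) and the regulator Irf7 (0.66 ± 0.80) were not called, nor without the 2 outlying control arrays (adjusted p = 0.155, 0.134 and 0.255). Without those arrays Ifit1, which binds viral RNA (-1.47, adjusted p = 0.00977), the RNA sensor Ifih1 (-1.67, adjusted p = 0.00529) and the protease Usp18, which removes ISG15 (-1.09, adjusted p = 0.0207), fell. Bst2, which tethers budding virus, rose there (0.79, adjusted p = 0.036), and these 4 were named after their values were seen. The mean over the whole list was 2.49 to 3.42 on the 24 h arrays and 3.15 to 3.75 on the 6 h arrays, against -0.76 to -0.0039 on the unstimulated ones, so the set stood above its unstimulated level at both times.

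Interferon beta itself, Ifnb1, had 0.26, 0.23, 0.62, 2.07 and 1.96 at 24 h, against 1.59, 1.60, 2.56, 4.34 and 3.55 at 6 h. Replicates 4 and 5 were the highest at both times, so that the groups overlapped although each of the 5 pairs fell. The difference was not called at first (log2 difference -1.70, SE 0.55, adjusted p = 0.0534) but was with the replicate block (adjusted p = 0.0142) and without the 2 outlying control arrays (0.0107), and the probe was well above background on 3 of the 5 arrays at 24 h. Irf1, an activator of interferon-stimulated genes, had 1.94, 2.11, 2.36, 0.74 and 0.78 at 24 h, against 3.23, 3.44, 3.73, 2.55 and 2.38 at 6 h. There was no overlap, and the pattern of calls was the same (log2 difference -1.48, SE 0.52, adjusted p = 0.076, 0.0333 with the block and 0.0248 without the 2 arrays). Of 14 IRF family genes and partners 0 were called by limma (1 and 1 with the replicate block, 1 and 0 without the 2 outlying control arrays, lower first), and Irf8 was at -0.032 ± 0.28. All genes had 4.2% lower and 3.54% higher at first, 9.5% and 9.17% with the block, and 7.03% and 6.16% without those arrays. Among 14 interferon-induced GTPases of the GBP and IRG families, which attack vacuoles of intracellular microbes, 1 was called, with a list median of -0.83. It was Gbp5, with 4.87, 5.21, 5.39, 4.37 and 4.12 at 24 h, against 6.74, 7.40, 7.55, 6.80 and 6.51 at 6 h. Gbp5 was 4.62-fold lower (log2 difference -2.21, SE 0.68, adjusted p = 0.0426). Eif2ak2 was not called without 24 h replicate 4 or 5 or 6 h replicate 1, 2 or 3 (adjusted p = 0.0516 to 0.0823, log2 difference -1.13 to -1.23). Oas1g was not called without 24 h replicate 1, 2, 4 or 5 or 6 h replicate 1, 2, 3, 4 or 5 (adjusted p = 0.0531 to 0.0862, log2 difference -0.66 to -0.76). Gbp5 was not called without 24 h replicate 1, 2, 3, 4 or 5 or 6 h replicate 1, 2, 3 or 4 (adjusted p = 0.0538 to 0.112, log2 difference -2.04 to -2.36).

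RefSeq promoters (GRCm38.p6, 250 bases before to 50 after a gene's start) are shown for 3 of the genes that fell because they hold GAAANNGAA, a core of the interferon-stimulated response element that interferon regulatory factors are known to bind, searched on both strands. The capitals mark that core: Cxcl10 chr5:92348840-92349139 (minus strand), Il19 chr1:130940066-130940365 (minus strand) and Eif2ak2 chr17:78882523-78882822 (minus strand).
Cxcl10: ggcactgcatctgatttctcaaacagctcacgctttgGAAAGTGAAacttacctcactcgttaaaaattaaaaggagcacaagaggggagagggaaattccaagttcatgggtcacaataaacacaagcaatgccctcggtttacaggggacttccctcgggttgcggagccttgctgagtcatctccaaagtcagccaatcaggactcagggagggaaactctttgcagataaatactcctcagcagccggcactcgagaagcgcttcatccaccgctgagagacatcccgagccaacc
Il19: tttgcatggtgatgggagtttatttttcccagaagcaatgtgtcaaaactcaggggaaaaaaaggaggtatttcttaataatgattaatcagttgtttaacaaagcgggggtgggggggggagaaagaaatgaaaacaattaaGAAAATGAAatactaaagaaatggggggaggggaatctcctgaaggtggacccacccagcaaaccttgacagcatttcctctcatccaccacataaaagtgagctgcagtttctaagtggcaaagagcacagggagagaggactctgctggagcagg
Eif2ak2: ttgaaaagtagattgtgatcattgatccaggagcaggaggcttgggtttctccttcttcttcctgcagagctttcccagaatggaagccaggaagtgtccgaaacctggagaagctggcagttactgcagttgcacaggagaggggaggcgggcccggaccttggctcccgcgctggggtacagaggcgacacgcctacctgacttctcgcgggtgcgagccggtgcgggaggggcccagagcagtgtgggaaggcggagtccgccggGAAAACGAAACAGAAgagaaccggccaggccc
The core ends 205 bases before the start of Cxcl10 and 99 bases before that of Il19. Eif2ak2 holds 2 overlapping copies that end 27 and 33 bases into the gene. The core was found in 56 of 495 promoters of the genes that fell (11.3%), in 23 of 436 promoters of the genes that rose (5.28%) and in 861 of 11550 promoters of all genes tested (7.45%). Of the promoters of the measured interferon-stimulated genes 18 of 35 hold it (51.4%). A match is a description of letters and no measure of binding.

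Of 38 genes of the NF-kB system and its feedback 5 fell and 1 rose, against 4.2% lower and 3.54% higher of all genes, with a median of -0.31. Counts were 10 and 1 with the replicate block, 10 and 1 without the 2 outlying control arrays, against 9.5% lower and 9.17% higher of all genes with the block and 7.03% and 6.16% without those arrays. Nfkbiz, an atypical inhibitor that is also needed for secondary cytokine genes, had -0.77, -0.71, -0.33, -1.24 and -1.13 at 24 h, against 1.57, 1.86, 2.31, 0.53 and 0.40 at 6 h. Nfkbiz fell 4.50-fold (log2 difference -2.17, SE 0.54, adjusted p = 0.0119). The ubiquitin ligase Peli1, which acts in Toll-like receptor signalling, had 0.89, 1.03, 1.17, 0.23 and 0.22 at 24 h, against 2.57, 2.79, 2.96, 2.23 and 1.87 at 6 h. Peli1 was 3.42-fold lower (log2 difference -1.78, SE 0.34, adjusted p = 0.00182). The times did not overlap in either gene, and replicates 4 and 5 were the lowest at each time. The deubiquitinase Cyld (-0.64 ± 0.13), the A20-binding inhibitor Tnip3 (-1.0 ± 0.28) and the NF-kB subunit Rel (-1.02 ± 0.30, adjusted p = 0.0325) fell, and the ERK phosphatase Dusp6 rose (1.12 ± 0.34). Tnfaip3, which encodes A20, had 2.53, 2.71, 2.80, 2.01 and 1.91 at 24 h, against 3.60, 3.83, 4.00, 3.07 and 3.1 at 6 h, with no overlap between the times. It was not called in the fit of all 30 arrays, with or without the replicate block, and fell without the 2 outlying control arrays (log2 difference -1.13, adjusted p = 0.133 with them and 0.0289 without). Nfkbia, the classical inhibitor (-0.82 ± 0.41), and Socs3 (-0.55 ± 0.48) were not called. Dusp6 lost its call without 24 h replicate 1, 2 or 3 or 6 h replicate 2, 3, 4 or 5 (adjusted p = 0.0599 to 0.104, log2 difference 0.94 to 1.18). Tnip3 lost its call without 24 h replicate 1 or 2 or 6 h replicate 4 (adjusted p = 0.0502 to 0.0689, log2 difference -0.86 to -1.0).

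Among pattern recognition genes 1 of 29 fell and 0 rose, against 4.2% lower and 3.54% higher of all genes, with a median of -0.22. Counts were 5 and 1 with the replicate block and 4 and 1 without the 2 outlying control arrays. All genes had 9.5% lower and 9.17% higher with the block, and 7.03% and 6.16% without those arrays. Tlr3, the endosomal receptor of double-stranded RNA, fell 3.07-fold (log2 difference -1.62, SE 0.47, adjusted p = 0.0312), but not without 24 h replicate 4 or 5 or 6 h replicate 1, 2 or 3 (adjusted p = 0.0676 to 0.11, log2 difference -1.36 to -1.54). The LPS receptor Tlr4 (0.37 ± 0.25), its co-receptor Cd14 (0.54 ± 0.62) and Tlr2 (-0.77 ± 0.32) were not called. With the block the adaptor gene Myd88 fell (-0.67, adjusted p = 0.0285) and the lectin Clec4d rose (1.49, adjusted p = 0.0099). Of 22 immediate-early transcription factors 1 was called, the small MAF protein Mafk, which fell (log2 difference -0.86, SE 0.24, adjusted p = 0.0258). It was not called without 24 h replicate 4 or 5 or 6 h replicate 1, 2 or 3 (adjusted p = 0.0566 to 0.0845, log2 difference -0.75 to -0.82). Fos (0.44 ± 0.32), Egr1 (0.46 ± 0.26) and Myc (-0.25 ± 0.26) were below their unstimulated means at both times and were not called.

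Called surface molecules of maturation went in both directions. In the list of costimulation, maturation and migration genes 3 of 28 fell and 2 rose, against 4.2% lower and 3.54% higher of all genes, with a median of -0.25. Counts were 5 and 4 with the replicate block, 6 and 2 without the 2 outlying control arrays, against 9.5% lower and 9.17% higher of all genes with the block and 7.03% and 6.16% without those arrays. Icosl, the ligand of the T cell costimulator ICOS, had 2.68, 2.91, 3.32, 1.71 and 1.69 at 24 h, against 4.65, 4.75, 4.70, 4.13 and 3.87 at 6 h. Icosl was 3.88-fold lower (log2 difference -1.96, SE 0.30, adjusted p = 0.000183). Cd1d1, which presents lipid antigens to NKT cells, had 4.19, 4.39, 4.22, 3.98 and 3.87 at 24 h, against 1.78, 1.83, 1.87, 3.03 and 2.86 at 6 h. Cd1d1 was 3.61-fold higher (log2 difference 1.85, SE 0.36, adjusted p = 0.00174). The rise was 2.44 in replicates 1 to 3 and 0.98 in replicates 4 and 5, whose 6 h values were higher. No 24 h array overlapped with a 6 h array in Icosl or Cd1d1, which for Cd1d1 the choice of the largest rises required. Cd1d1 has a close paralog in the mouse, and whether the probe reads both was not tested.

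The chemokine receptor Cxcr4 rose in each of the 5 pairs, with 1.21, 1.18, 0.80, 2.32 and 2.19 at 24 h, against 0.32, -0.29, -0.61, 0.72 and 1.59 at 6 h. The times overlapped (log2 difference 1.19, SE 0.33, adjusted p = 0.022). The adhesion molecule Icam1 (-0.69 ± 0.19) and the interleukin 15 presenting chain Il15ra (-1.08 ± 0.32) fell. Hallmark genes of mature dendritic cells were not called. Cd86, the main CD28 ligand, had 3.47, 3.51, 3.75, 4.94 and 4.54 at 24 h, against 3.60, 3.68, 3.99, 4.83 and 4.66 at 6 h (difference -0.11 ± 0.47). The lymph node homing receptor Ccr7 had 4.57, 4.76, 4.68, 5.16 and 4.93 at 24 h, against 4.45, 4.58, 4.55, 5.10 and 4.62 at 6 h (difference 0.16 ± 0.51). In the sample dye Cy5 its mean log2 level was 12.9 at 24 h and 12.1 at 6 h. Ccr7 was called in 0 of 30 alternative fits. Cd83 (-0.19 ± 0.35) and Cd80 (-0.59 ± 0.35) were not called. Cxcr4 was not called without 24 h replicate 4 or 5 or 6 h replicate 2 or 3 (adjusted p = 0.0652 to 0.0949, log2 difference 0.95 to 1.03). Icam1 lost its call without 24 h replicate 1 or 6 h replicate 1, 2 or 4 (adjusted p = 0.0553 to 0.0716, log2 difference -0.62 to -0.66). Il15ra lost its call without 24 h replicate 1 or 5 or 6 h replicate 1, 2, 3 or 4 (adjusted p = 0.0515 to 0.107, log2 difference -0.87 to -1.14).

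Antigen presentation genes had few calls. By limma 0 of 17 MHC class II genes and 0 of 15 MHC class I genes were called, with medians of 0.16 for class II and 0.037 for class I, and 2 in each list rose with the replicate block. Without the 2 outlying control arrays 0 of class II and 1 of class I rose. The shares of all genes that rose were 3.54% at first, 9.17% with the block and 6.16% without those arrays. At an unadjusted p under 0.05, 2412 of all genes passed. With the block the lysosomal thiol reductase Ifi30 (0.69, adjusted p = 0.0016) and H2-DMa, which loads peptides (0.36, adjusted p = 0.0258), were higher, as were Psme1 of the proteasome activator (0.53, adjusted p = 0.048) and the nonclassical H2-T23 (1.06, adjusted p = 0.0471). H2-Ab1 had 3.79, 3.89, 3.73, 3.73 and 3.73 at 24 h, against 3.87, 3.79, 3.84, 3.70 and 3.71 at 6 h, a difference of -0.0067 ± 0.12. In the sample dye Cy5 its mean log2 level was 14.5 at 24 h and 14.0 at 6 h. H2-Ab1 was called in 0 of 30 alternative fits. The class II transactivator Ciita (-0.44 ± 0.33), the invariant chain Cd74 (0.14 ± 0.35) and the peptide transporter Tap1 (-0.34 ± 0.41) were not called either.

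Several of the genes that rose most encode surface or secreted proteins. Ly6f, of the LY6 family, had 2.61, 3.06, 2.63, 3.23 and 3.13 at 24 h, against 0.020, 0.20, 0.034, 0.94 and 0.37 at 6 h. The rise was 6.16-fold (log2 difference 2.62, SE 0.45, adjusted p = 0.000496). Its relative Ly6c1, part of the Ly6C antigen of inflammatory monocytes, had 1.26, 1.40, 1.02, 2.02 and 1.74 at 24 h, against -1.16, -0.72, -0.96, 0.52 and 0.023 at 6 h. Ly6c1 rose 3.85-fold (log2 difference 1.95, SE 0.39, adjusted p = 0.00249). Members of this family are similar in sequence, and cross-hybridisation between them was not tested. Serf1 had 1.88, 2.09, 2.06, 2.98 and 2.77 at 24 h, against -0.44, -0.71, -0.70, 0.78 and 0.66 at 6 h. Serf1 was 5.43-fold higher (log2 difference 2.44, SE 0.40, adjusted p = 0.000404), with replicates 4 and 5 the highest at both times. In all 3 genes the 24 h arrays lay above all 6 h arrays, as the choice of the largest rises required.

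Sdc1, the heparan sulfate proteoglycan syndecan, had 0.50, 0.76, 0.67, 0.67 and 0.48 at 24 h, against -1.32, -1.37, -1.62, -1.23 and -1.25 at 6 h, an even rise (3.93-fold, log2 difference 1.97, SE 0.35, adjusted p = 0.000893). Tmem119, a membrane protein best known as a microglial marker, had 0.81, 1.08, 0.96, 0.73 and 0.45 at 24 h, against -1.09, -0.99, -1.09, -1.25 and -1.18 at 6 h. Tmem119 rose 3.81-fold (log2 difference 1.93, SE 0.41, adjusted p = 0.00374). Susd2, a sushi domain protein, had 2.73, 3.29, 2.96, 1.21 and 1.27 at 24 h, against 0.36, 0.67, 0.30, 0.25 and 0.029 at 6 h. Replicates 1 to 3 rose further (2.55) than replicates 4 and 5 (1.10). The mean rise was 3.92-fold (log2 difference 1.97, SE 0.34, adjusted p = 0.000649), and the probe was well above background on 2 of the 5 arrays at 6 h.

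Galnt14, which starts mucin-type glycosylation, was not well above background on any 6 h array and was at least 3.20-fold higher at 24 h (adjusted p = 0.0128). Its 24 h values were 1.69, 1.70, 2.03, 2.16 and 1.93, against 0.15, 0.42, 0.29, 0.24 and 0.026 at 6 h. The membrane protease Adam8 had 2.52, 2.39, 2.22, 1.91 and 2.15 at 24 h, against 1.03, 0.89, 0.83, -0.28 and 0.31 at 6 h. Adam8 was 3.21-fold higher (log2 difference 1.68, SE 0.40, adjusted p = 0.00921). The blood cell transcription factor Lyl1 rose 3.15-fold (1.66 ± 0.37). Cyp1b1, a cytochrome P450, rose 3.82-fold (1.93 ± 0.44). The 6 h arrays all lay below the unstimulated arrays in Adam8 (means 0.56 at 6 h and 1.69 unstimulated) and in Lyl1 (-0.96 at 6 h and 0.88 unstimulated). In Galnt14 the unstimulated arrays were uneven, at -0.057, 2.07, 2.09, 2.20 and 0.11, and replicates 1 and 5 lay at the 6 h level. None of these genes had overlap between 24 and 6 h, which the choice of the largest rises required. Of the 24 largest changes in both directions, chosen among called genes without overlap, 21 kept the call whichever of the 10 arrays was left out.

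Antioxidant, iron and heme genes had the highest median of the 31 lists. Of 28 members 7 rose and 0 fell, against 3.54% of all genes higher. Counts were 11 higher and 0 lower with the replicate block and 10 and 0 without the 2 outlying control arrays. Of all genes 9.17% were higher with the block and 6.16% without those arrays. The median log2 difference was 0.55, and the mean over the list was 0.96 to 1.53 on the 24 h arrays, against 0.39 to 0.84 on the 6 h arrays. Gclm, the regulatory subunit of the enzyme that makes the glutathione precursor, had 0.96, 0.91, 0.68, 0.51 and 0.56 at 24 h, against 0.30, 0.025, -0.16, -0.24 and 0.39 at 6 h. The rise was 1.58-fold (log2 difference 0.66, SE 0.16, adjusted p = 0.0127) back to about the unstimulated mean of 0.68. The superoxide dismutase Sod1 had -1.22, -1.19, -1.22, -1.25 and -1.17 at 24 h, against -1.62, -1.70, -1.78, -1.93 and -1.68 at 6 h, a small rise with a narrow spread and no overlap (log2 difference 0.53, SE 0.13, adjusted p = 0.0091).

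Lcn2, which binds bacterial siderophores and so withholds iron, had 3.72, 4.03, 3.89, 3.12 and 3.14 at 24 h, against 1.38, 1.30, 1.13, 2.41 and 2.16 at 6 h. Lcn2 was 3.74-fold higher (log2 difference 1.90, SE 0.48, adjusted p = 0.0127). Slc11a1, the phagosomal metal transporter NRAMP, had 1.82, 1.98, 2.22, 0.81 and 1.09 at 24 h, against 0.57, 0.16, 0.094, -0.27 and 0.33 at 6 h. Slc11a1 rose 2.66-fold (log2 difference 1.41, SE 0.34, adjusted p = 0.00957). C57BL/6 mice are known to carry a loss-of-function allele of Slc11a1. The glutathione transferase Gsta3 (1.31 ± 0.33), catalase Cat (0.68 ± 0.19) and the sulfiredoxin Srxn1 (1.01 ± 0.29) made up the rest, the last 3 named after their values were seen. Heme oxygenase Hmox1 (1.02 ± 0.61), Sod2 (-0.015 ± 0.57) and the acute-phase gene Saa3 (1.97 ± 1.00, adjusted p = 0.258) were not called. All 24 h values of Saa3 lay above its 6 h values, and it rose without the 2 outlying control arrays (adjusted p = 0.00208). The heme scavenger haptoglobin Hp was called with the block (1.73, adjusted p = 0.0233) and without those arrays (0.0397), and the metallothionein Mt1 likewise (0.68, adjusted p = 0.0358 and 0.033).

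The promoters of 3 of these genes are shown because they hold the core of the antioxidant response element, TGACNNNGC on either strand (also found once in the Cxcl10 promoter above), which NRF2 and small MAF proteins are known to bind within a longer element. The capitals mark that core: Gclm chr3:122245307-122245606 (plus strand), Gsta3 chr1:21240335-21240634 (plus strand) and Sod1 chr16:90220512-90220811 (plus strand).
Gclm: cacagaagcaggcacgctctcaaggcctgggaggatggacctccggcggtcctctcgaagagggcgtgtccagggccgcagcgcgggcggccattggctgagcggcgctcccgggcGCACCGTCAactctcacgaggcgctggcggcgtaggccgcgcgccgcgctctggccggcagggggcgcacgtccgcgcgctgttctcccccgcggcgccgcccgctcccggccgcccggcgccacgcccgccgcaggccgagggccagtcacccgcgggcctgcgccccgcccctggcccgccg
Gsta3: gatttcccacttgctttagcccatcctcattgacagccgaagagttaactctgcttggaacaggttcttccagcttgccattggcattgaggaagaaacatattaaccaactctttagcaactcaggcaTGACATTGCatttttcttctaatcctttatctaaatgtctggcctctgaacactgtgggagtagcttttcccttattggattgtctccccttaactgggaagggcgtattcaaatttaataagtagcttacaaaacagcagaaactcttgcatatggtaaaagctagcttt
Sod1: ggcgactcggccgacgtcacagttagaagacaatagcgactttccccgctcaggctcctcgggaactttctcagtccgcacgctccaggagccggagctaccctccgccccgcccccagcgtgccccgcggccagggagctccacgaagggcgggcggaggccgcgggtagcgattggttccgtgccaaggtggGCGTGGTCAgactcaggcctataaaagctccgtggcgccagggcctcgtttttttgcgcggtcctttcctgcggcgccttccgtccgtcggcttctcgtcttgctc
The core ends 126 bases before the start of Gclm, 113 before that of Gsta3 and 48 before that of Sod1. Of the 7 genes of the list that rose 4 hold it, Srxn1 being the other. Among the promoters of all measured members 7 of 28 do (25%), against 1642 of 11550 for all genes tested (14.2%), 54 of 436 for the genes that rose (12.4%) and 68 of 495 for those that fell (13.7%). The element also occurs outside this window in many genes, which was not searched.

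Few genes of central metabolism were called in the first fit. In the TCA cycle and oxidative phosphorylation 2 of 40 genes rose and 0 fell, with a median of 0.11. Of all genes 3.54% were higher and 4.2% lower. Counts were 8 and 0 with the replicate block and 5 and 0 without the 2 outlying control arrays. The shares of all genes that rose were 9.17% with the block and 6.16% without those arrays. Sdhb, of succinate dehydrogenase, had 0.43, 0.37, 0.51, 0.56 and 0.51 at 24 h, against -0.21, -0.20, -0.23, 0.32 and 0.28 at 6 h (log2 difference 0.49, SE 0.13, adjusted p = 0.0226). The malate dehydrogenase Mdh1 rose as well (log2 difference 0.46, SE 0.14, adjusted p = 0.0329). With the block Idh1 (0.91, adjusted p = 0.0314), Sdhd (0.58, adjusted p = 0.00512) and the complex I subunit Ndufa5 (0.39, adjusted p = 0.0254) joined them. Glycolysis and hypoxia genes had 2 of 28 members lower and 0 higher, which were Fbp1 and the vasodilator peptide gene Adm (-0.99 ± 0.29). Fbp1 works in the opposite direction to glycolysis. Hk2 (-0.49 ± 0.59), Ldha (0.21 ± 0.33) and Hif1a (-0.51 ± 0.33) were not called. Sdhb was not called without 6 h replicate 1, 2 or 3 (adjusted p = 0.0653 to 0.0811, log2 difference 0.43 to 0.44). Mdh1 was not called without 24 h replicate 1, 4 or 5 or 6 h replicate 2, 3 or 4 (adjusted p = 0.0566 to 0.0909, log2 difference 0.40 to 0.46). Adm was not called without 24 h replicate 1, 2, 3 or 5 or 6 h replicate 2 or 3 (adjusted p = 0.0533 to 0.124, log2 difference -0.78 to -1.01).

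In cholesterol and fatty acid synthesis 1 of 31 genes rose, the mevalonate pathway kinase Pmvk (0.70 ± 0.21), and 0 fell. Without the 2 outlying control arrays 4 rose, among them the desaturase Scd2 (2.02 ± 0.67, adjusted p = 0.0612 with and 0.0012 without them) and the squalene epoxidase Sqle (0.58, 0.162 and 0.000224). Lipid efflux and LXR genes had 1 of 20 higher, the fatty acid binding protein Fabp5 (0.96 ± 0.29), with the cholesterol exporter Abca1 at -0.034 ± 0.65 and Ch25h at -0.35 ± 0.48. Pmvk lost its call without 24 h replicate 4 or 5 or 6 h replicate 1, 2 or 3 (adjusted p = 0.0889 to 0.112, log2 difference 0.52 to 0.63). From Cy5 alone and from the mean over the gene's probes Pmvk was not called either. Fabp5 lost its call without 24 h replicate 4 or 5 or 6 h replicate 1, 2 or 3 (adjusted p = 0.0937 to 0.117, log2 difference 0.76 to 0.88). Of 33 lysosomal genes 0 were called (3 higher and 1 lower with the block). Of 22 genes of arginine, nitric oxide and eicosanoid metabolism 0 were called (1 and 0 with the replicate block, 2 and 1 without the 2 outlying control arrays, higher first). Of all genes 3.54% were higher and 4.2% lower at first, 9.17% and 9.5% with the block, and 6.16% and 7.03% without those arrays. Arg1 was at -0.070 ± 0.15 and Nos2 at -0.77 ± 0.75. In the sample dye Cy5 the mean log2 level of Arg1 was 15.2 at 24 h and 16.2 at 6 h, unlike its ratio. Arg1 was called in 0 of 30 alternative fits. The prostaglandin synthase Ptgs2 had 1.2, 1.30, 1.73, 0.61 and 0.37 at 24 h, against 3.1, 3.36, 3.93, 2.21 and 1.81 at 6 h, with no overlap. This gene was not called in the fit of all 30 arrays, with or without the replicate block, and fell without the 2 outlying control arrays (log2 difference -1.84, adjusted p = 0.103 with them and 0.00468 without).

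In the integrated stress response and amino acid list 1 of 32 rose and 0 fell, against 3.54% higher and 4.2% lower of all genes. With the block 5 rose and 1 fell, against 9.17% and 9.5% of all genes. The gene that rose at first was Ddit3, which encodes the stress factor CHOP (log2 difference 0.86, SE 0.23, adjusted p = 0.018). Its rise was 1.28 in replicates 1 to 3 and 0.22 in replicates 4 and 5, and the call ended without 24 h replicate 3 or 6 h replicate 3 (adjusted p = 0.0526 to 0.0715, log2 difference 0.74 to 0.79). Cell cycle and DNA replication genes had 1 of 38 higher, the transcription factor E2f1 (log2 difference 0.75, SE 0.17, adjusted p = 0.00721), and 0 lower, although the list median was -0.36. The mitotic topoisomerase Top2a (-0.42 ± 0.33) and the replication clamp Pcna (-0.34 ± 0.19) were not called. Ribosome biogenesis and translation genes had 0 of 28 called in either fit and a median of 0.045. Complement, protease and matrix genes had 1 of 28 called, Adam8. The complement genes C3 (0.94 ± 0.79) and Cfb (0.22 ± 0.37) were not called. In the sample dye Cy5 the mean log2 level of Cfb was 16.6 at 24 h and 14.8 at 6 h, a change that its ratio did not show. Cfb was called in 0 of 30 alternative fits.

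**Figure D3:**
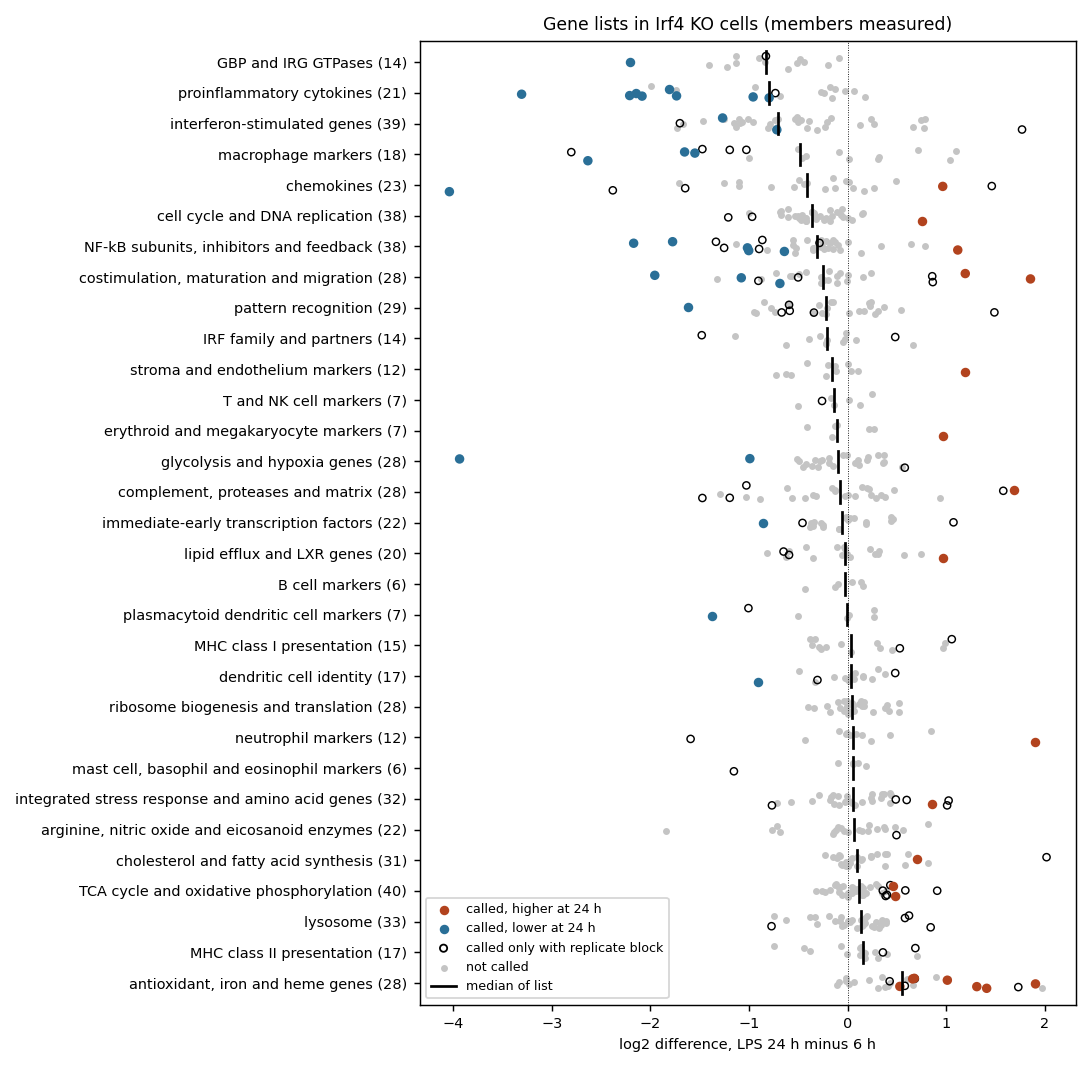
Log2 differences, LPS 24 h minus 6 h in KO cells, of every measured member of the 31 gene lists, one list per line with its number of measured members in brackets, ordered by median (black ticks). Filled points passed the test, blue for genes that were lower and orange for genes that were higher at 24 h, and open circles passed only with the replicate block. Called members of the cytokine list, Edn1 among them, all lie left of 0 (8 of 21). Called antioxidant, iron and heme genes all lie right of 0 (7 of 28).

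Of 18 macrophage markers 3 fell and 0 rose, against 4.2% lower and 3.54% higher of all genes, with a median of -0.48. Counts were 7 and 0 with the replicate block, 4 and 0 without the 2 outlying control arrays, against 9.5% lower of all genes with the block and 7.03% without those arrays. Of the 18 markers 16 were well above background on all 10 arrays. The mean over the list was 2.12 to 3.34 on the 24 h arrays, against 2.82 to 4.01 on the 6 h arrays, ranges that overlap. Mrc1, the mannose receptor, had 4.27, 3.45, 2.89, 1.03 and 3.33 at 24 h, against 6.24, 5.92, 6.29, 4.36 and 5.33 at 6 h. The times did not overlap, as the choice of the largest falls required, and replicate 4 was the lowest at each time. Mertk, a receptor for the uptake of dying cells, had 2.02, 1.69, 1.71, 1.22 and 1.65 at 24 h, against 3.48, 3.55, 3.80, 3.03 and 2.69 at 6 h. Mertk was 3.15-fold lower (log2 difference -1.65, SE 0.48, adjusted p = 0.0302). Retnla, a secreted marker of alternative activation, had 3.63, 3.91, 3.77, 3.24 and 3.27 at 24 h, against 5.31, 5.21, 5.33, 5.13 and 4.59 at 6 h. Retnla was 2.93-fold lower (log2 difference -1.55, SE 0.39, adjusted p = 0.0139). It was not called from Cy5 alone, from the scanner software's log ratio, with median centring or in either replicate subset. With the block the complement chains C1qa (-1.03), C1qb (-1.47) and C1qc (-1.20) fell too (adjusted p = 0.0213, 0.0116 and 0.0129), while Adgre1, which encodes a classical macrophage antigen, was at 1.10 ± 0.60 and not called. Mertk lost its call without 24 h replicate 2, 3, 4 or 5 or 6 h replicate 1, 2 or 3 (adjusted p = 0.0504 to 0.0902, log2 difference -1.53 to -1.67). What part these markers have in the other results was not tested.

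Dendritic cell identity genes had 1 of 17 called, the transcription factor Zbtb46, which fell (log2 difference -0.91, SE 0.24, adjusted p = 0.0179) and was above its unstimulated mean at both times (1.17 ± 0.33 at 24 h and 2.08 ± 0.28 at 6 h, against 0.30 unstimulated). The call ended without 24 h replicate 1 or 6 h replicate 3 (adjusted p = 0.0557 to 0.0597, log2 difference -0.79 to -0.85). From Cy5 alone and from the mean over the gene's probes Zbtb46 was not called either. The list median was 0.038, and of all genes 4.2% were lower and 3.54% higher. Those shares, which also apply to the marker lists below, were 9.5% and 9.17% with the replicate block. Neutrophil markers had 1 of 12 called, Lcn2, a gene that myeloid cells also express under LPS, while the calprotectin gene S100a8 was at -0.022 ± 1.00 and the granule gene Mpo at 0.022 ± 0.17. Plasmacytoid dendritic cell markers had 1 of 7 lower, Tcf4 (log2 difference -1.38, SE 0.39, adjusted p = 0.026), and erythroid and megakaryocyte markers 1 of 7 higher, Pf4. Stroma and endothelium markers had 1 of 12 higher, the matrix proteoglycan Dcn at a low level (log2 difference 1.19, SE 0.37, adjusted p = 0.0495), with the collagen gene Col1a1 at -0.12 ± 0.14. Of the 6 B cell, 7 T and NK cell and 6 mast cell, basophil and eosinophil markers 0 were called by limma, and with the block 1 T cell gene, Cd3e (-0.26, adjusted p = 0.0274), and the eosinophil gene Siglecf (-1.15, adjusted p = 0.00222) were lower. Tcf4 was not called without 24 h replicate 4 or 5 or 6 h replicate 1, 2 or 3 (adjusted p = 0.0552 to 0.0975, log2 difference -1.17 to -1.32). Dcn was not called without any one of the 10 arrays (adjusted p = 0.0514 to 0.132).

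Whether the step from 6 to 24 h differed between genotypes was tested as the KO change minus the control change. It differed for 12 of 11260 genes (0.107%), 3 positive and 9 negative (16 and 15 from Cy5 alone, 0 and 1 with median centring), and for 771 at an unadjusted p under 0.05; with the replicate block for 66, and without the 2 outlying control arrays for 23. Control cells had 617 genes (5.48%) called between 24 and 6 h, 371 higher and 246 lower, and 1070 (9.5%) without the 2 outlying arrays. Both comparisons take their spread from the same fit, and genes called in one genotype and not in the other are not thereby shown to differ.

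Among the named genes Csf2 had the largest difference. It fell in KO cells (-2.21 ± 0.30), while in control cells the change was 0.11 ± 0.30, a difference of -2.32 ± 0.42 (adjusted p = 0.0293). Mean log2 ratios in KO cells were -0.21 unstimulated, 2.67 at 6 h and 0.46 at 24 h, and in control cells -0.22, 0.0051 and 0.11 at the same times. Csf2 was thus raised at 6 h in KO arrays, while no control array at 6 h exceeded 0.20. The control means all lay below the KO mean at 24 h, where the probe was well above background on 3 of 5 arrays. A fall in control cells could thus hardly have been measured, and the difference rests on the raised KO level at 6 h. The kinase Stk38l fell in KO cells, with 0.46, 0.53, 0.84, 0.34 and 0.38 at 24 h, against 1.45, 1.83, 2.05, 1.43 and 1.09 at 6 h (log2 difference -1.06, SE 0.21, adjusted p = 0.00211). Its change in control cells was 0.55 (difference -1.61 ± 0.30, adjusted p = 0.0293). Smurf2, a ubiquitin ligase of the TGF-beta pathway, fell a little in KO cells (-0.41 ± 0.11) against 0.47 in control cells (adjusted p of the difference = 0.0186).

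Ttc39c, Glcci1 and the GTPase Gtpbp4, which acts in ribosome assembly, were not called in KO cells. Ttc39c changed by -0.44 in KO and 1.45 in control cells, adjusted p = 0.0186 for the difference. Glcci1 changed by -0.72 in KO and 1.09 in control cells, adjusted p = 0.0327, and Gtpbp4 by -0.079 in KO and 0.73 in control cells, adjusted p = 0.0374. The difference was positive for 3 genes. The dynein light chain Dynll1 rose in KO cells, with 0.13, 0.22, 0.46, 0.11 and 0.0051 at 24 h, against -1.10, -1.32, -1.38, -0.83 and -0.66 at 6 h (log2 difference 1.24, SE 0.17, adjusted p = 3.88e-05). The change in control cells was 0.074 (difference 1.17 ± 0.24, adjusted p = 0.0374). Ndufa5 changed by 0.39 in KO and -0.49 in control cells, adjusted p = 0.0374. The olfactory receptor gene Olfr615, at a low level, changed by 0.53 in KO and -0.10 in control cells, adjusted p = 0.0374.

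These calls depended on single arrays. Leaving out KO 6 h replicate 2 or 3 left 0 genes called. With the slide as a random block 1 gene was called, Ttc39c. Of the 20 fits without 1 LPS array, Ttc39c was called in 18, Smurf2 in 17, Stk38l in 14, Csf2 in 13, Glcci1 in 12, Dynll1 in 9, Ndufa5 in 7, Olfr615 in 6 and Gtpbp4 in 4. The differences themselves ranged over these fits from -2.65 to -2.03 for Csf2 and from 1.06 to 1.29 for Dynll1. Without the 2 outlying control arrays Csf2 (adjusted p = 0.0257), Ttc39c (0.0242), Glcci1, Stk38l, Smurf2 and Olfr615 were called, and Dynll1 (0.0707), Ndufa5 (0.0649) and Gtpbp4 (0.0597) were not.

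**Figure D4:**
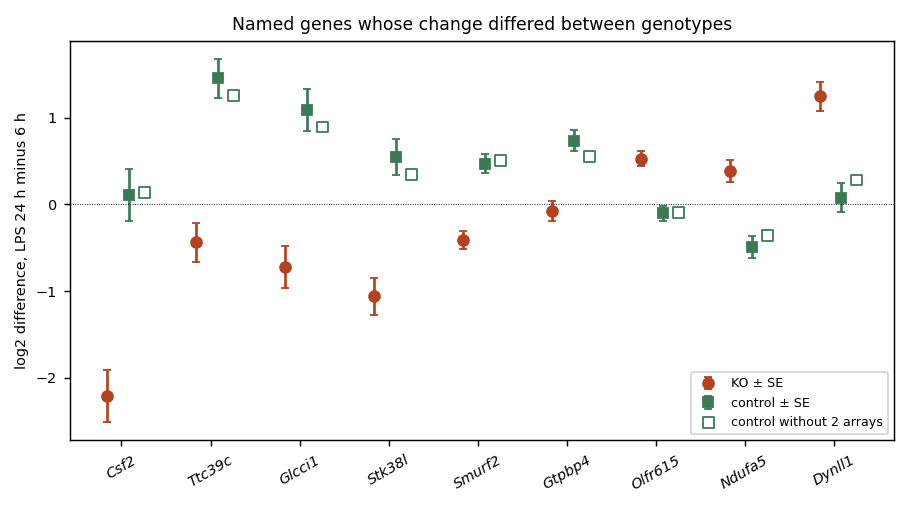
Log2 difference between LPS 24 h and 6 h in KO cells (circles) and control cells (squares) with SE from the fit, for the 9 named genes whose change differed between genotypes. Open squares give control cells without 2 arrays that lay near unstimulated ones. Csf2 is at -2.21 in KO and 0.11 in control cells, and Dynll1 at 1.24 in KO and 0.074 in control cells.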

How the data were processed

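RNA of CD11c-selected dendritic cells was measured on 30 arrays with 2 colours, and 10 of them were compared here. Groups and replicate numbers were taken from the sample labels, which call the samples biological replicates without saying whether each is a mouse or a culture, so the p-values speak of the variation among these samples. Intensity values, the median brightness of each spot and of its surroundings in both dyes, were deposited unprocessed in the output of Feature Extraction 10.7.3.1 (version per the file headers). The same output has a log10 ratio, Cy5 to Cy3, for which the program subtracted background and normalised the dyes, per the file headers. A series table deposited by the authors holds log2 ratios, made with limma per the submitters' processing notes, version not given. Set against each array's own values (r 0.999885 to 0.999998, column medians 0.00584 to 0.0183), they were log2 ratios of sample over reference without centring.

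Background was corrected with normexp (offset 50) and ratios normalised by loess within arrays, with the 1639 control spots at weight 0, in limma 3.58.1 under R 4.3.3. Every array has the same dye orientation, so a dye effect is shared by both times. Of 41174 probes 22951 were named through their transcript accession and a RefSeq table, covering 16358 genes. Genes with a probe well above background on every array of at least 1 group were tested. There were 11260, each read by the brightest of these probes (mean Cy5). Of these genes 25 missed a spot on some array, which was left out there. The number of saturated Cy5 spots was 0. One mean per group was fitted to all 30 arrays (24 residual degrees of freedom), with empirical Bayes moderation and Benjamini-Hochberg adjustment, and genes with an adjusted p under 0.05 were called. Single values were compared with exact permutation tests. Over 20 pairs of replicate arrays differences had an SD of 2.70 times the SD of repeat spots or more, so none was taken for a repeat scan.

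The replicate numbers come from the labels. Arrays with the same number deviated from their group means together (r 0.792 to 0.875 across genes, and 4 of 5 arrays at 24 h correlated best with their own number at 6 h), so they were taken as pairs and a fit with the replicate number as a block is given. On simulated data for 11260 genes, 200 of them changed, with independent arrays, the test without the block recovered 99% of genes changed 4-fold and 56% of those changed 2-fold, with 4.91% false calls. With a replicate effect shared between times it recovered 97% and 68% with 0 false calls, and the test with the block 100% and 95% with 3.94% false calls. The size of that shared effect was set by choice. The simulated noise was normal, without a slide effect, subsets of replicates or outlying arrays, so these rates need not hold for the real arrays.

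Named genes were the 12 largest rises and falls among called genes whose times did not overlap, up to 4 called members of each list in its main direction and up to 2 in the other, preset members of each list (a few are not reported here), Irf4, and up to 6 genes in each direction for the genotype difference. Members, the 31 lists (757 genes) and tests were chosen with earlier results of these data known. Promoters came from a RefSeq table on GRCm38.p6, which held 9078 of the 11260 genes. The interferon motif searched in them was shortened by its last letter, and a search for an NF-kB motif was dropped, after the shares of both had been seen, so the motif shares only describe these promoters. Alternatives covered background, normalisation, filter, probe choice, samples in the fit, blocks and each array left out.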

Additional observations from a re-analysis of the deposited data

Results flagged for a closer look

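Single arrays stood away from the other 4 of their group in 8 of 266 combinations of a named gene and a time (3.01%). The gap was more than 0.71 of the group's range (Dixon's criterion). The criterion's chance rate of about 5% assumes draws from a single normal population. Replicates here formed subsets, so that rate cannot be set against the share found. Among macrophage genes Apoe, a lipid carrier, had 3.72 on 24 h replicate 3, against 2.07 to 2.43 on the other arrays of that time, and Retnla had 4.59 on 6 h replicate 5, against 5.13 to 5.33 on the other arrays of that time. Plet1 had 6.22 on 6 h replicate 3, against 6.03 to 6.07 on the other arrays of that time, a gap that is small in itself. Dcn had -4.07 on 6 h replicate 4, against -4.44 to -4.36 on the other arrays of that time, and its rise at 24 h was lost with any array left out. Ccr7 had 5.10 on 6 h replicate 4, against 4.45 to 4.62 on the other arrays of that time. Glcci1 had -1.81 on 24 h replicate 1, against -2.17 to -2.07 on the other arrays of that time. The B cell gene Cd79a had -0.045 on 24 h replicate 5, against 0.33 to 0.42 on the other arrays of that time, and the granule gene Mpo had 0.54 on 24 h replicate 5, against 0.22 to 0.28 on the other arrays of that time, both at low levels.

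The change between 24 and 6 h differed between genotypes, as KO change minus control change in log2 units, for 9 named genes by a test of the difference itself (limma, adjusted p under 0.05). It was -2.32 for Csf2, -1.89 for Ttc39c, -1.81 for Glcci1, -1.61 for Stk38l, -0.88 for Smurf2 and -0.81 for Gtpbp4. It was positive for Dynll1 (1.17), Ndufa5 (0.88) and Olfr615 (0.63). All 9 were called with the replicate block, and 6 of them without the 2 outlying control arrays.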

How the results depend on the processing

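The count of 872 genes stayed within 1.5 times, at 592 to 1280, with backgrounds as scanned (695), the scanner software's log ratio (973), Cy5 alone (1104), the authors' log2 ratios (869), no filter on dim probes (816), a stricter filter (791), probe means (960), a variance trend (879), the 10 compared arrays alone (1165), replicates 1 to 3 (1280) and replicates 4 and 5 (592). It was 373 with median centring, 2102 with the replicate block, 475 with the slide as a random block, 1420 on the 15 KO arrays, 1486 without the 2 outlying control arrays, 3015 with the block on the KO arrays, 3433 with the block and without the 2 control arrays, and 491 to 927 with 1 KO array left out. The genes called were not all the same. Of the 872, 314 were called in replicates 4 and 5, 619 in replicates 1 to 3 and 711 on the 10 compared arrays. The scanner's log ratio called 724 of them, Cy5 alone 729, and the other settings within 1.5 times 692 to 865. In replicates 4 and 5, 871 of the 872 kept their direction. The replicate block, with arrays paired by number, kept all 872 calls, changed no call of a named gene that was called, and added 6 named genes. The 12 genotype differences became 7 with backgrounds as scanned, 4 with the scanner's log ratio, 1 with median centring, 31 from Cy5 alone, 6 with a variance trend, 66 with the replicate block, 1 with the slide as a random block, 2 on the 20 LPS arrays, 23 without the 2 control arrays, 52 in replicates 1 to 3, 6 in replicates 4 and 5, 129 with the block and without the 2 control arrays, and 0 to 30 with 1 LPS array left out.

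A fixed slide block, where the times meet only through other groups, gave 5841 genes and 5672 genotype differences; with the replicate block it gave 276 and 327. In it the log2 difference between times was -2.49 for Adam8, -5.19 for Adgre1, -5.08 for Asns, -5.43 for B2m, 0.79 for Cd69, -3.54 for Cd74, -5.80 for Ctsd, -0.28 for Dcn, -2.10 for Fos, -5.34 for Lamp1, -5.66 for Ncl, 3.17 for Plet1, 9.93 for S100a8, -0.64 for Slc11a1, -0.60 for Sod1, 1.49 for Tnfsf8 and -2.08 for Trib3, opposite in sign to the first fit. With the replicate block added the sign turned for Fabp5 (-2.17), Galnt14 (-5.59), Pf4 (-0.49), Plet1 (0.10) and Smurf2 (0.91, and 0.58 for its genotype difference). The cause was not tested. Of 60 named genes called, 35 kept the call whichever KO array was left out. From Cy5 alone 6 of the 60 were not called, which were Gbp5, Mdh1, Pmvk, Retnla, Smurf2 and Zbtb46. With median centring 23 were not called, and with the scanner software's log ratio 11. Alternatives on replicate subsets, the random slide block, the slide block with the replicate block, and the replicate block with fewer arrays were chosen after seeing the data. Dim probes limit Csf2, Il19, Ifnb1, Susd2 and Galnt14.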
